A study of Homo sapiens with 9 samples.

Results

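The genes described here are 10 named members of the pathway by which cytokines of the interleukin-6 family signal: the transcription factor STAT3, the kinases JAK1, JAK2 and TYK2, the receptor chains IL6ST, IL6R, OSMR and LIFR, and SOCS3 and PIM1, which STAT3 is known to switch on. They were chosen by name, with earlier results of these data known, and all 10 were found among the 15354 genes of the expression table. The RNA-seq data came from HCT116, an established line of human colorectal cancer cells, harvested 36 h after transfection with siRNA. RNA purified by oligo-dT was read as single ends of 50 bases. The siRNA dose recorded for each library was 25 nM, while the paper's general methods give 50 nM. There were 3 groups of 3 libraries: cells given a control siRNA, which was a commercial non-targeting one, cells given siRNA A and cells given siRNA B. Both siRNA A and siRNA B were directed against SNHG5, a long non-coding RNA that hosts small nucleolar RNAs in its introns, and the question was how its depletion alters the transcriptome. No other agent or genetic change was given for any group. The paper describes the 3 libraries of a group as biological replicates. The labels do not say whether they came from separate transfections, so the p-values measure only the spread between these libraries.

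In this pathway a cytokine binds its own receptor chain, and the complex then recruits IL6ST (gp130), the signalling chain that the family shares. JAK kinases bound to the receptor tails phosphorylate STAT3, which moves to the nucleus and activates its targets, among them SOCS3, which switches the receptor off again, and the survival kinase PIM1. In colorectal cancer the pathway is known for its links to inflammation and tumour cell survival. Transcript levels say nothing of whether STAT3 was phosphorylated.

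The libraries held 15566530 to 23277549 reads, and the 10 genes drew from 150 reads, for JAK2, to 3076 reads, for JAK1, in a library. Levels are given as CPM, the reads of a gene brought to a common library total, after a further scaling between libraries by trimmed means (TMM), and tests used limma on the log2 of these values plus 1, so that a fold change understates the change of a low gene. A gene was called where the p-value, adjusted over all 13893 genes tested, lay below 0.05. SNHG5 itself ran against the labels. It stood at 31.3, 22.1 and 25.9 scaled CPM in the control libraries. The libraries labelled siRNA A held 71.5, 58.8 and 67.3, and those labelled siRNA B 46.2, 50.3 and 46.1. By limma it was called higher than control with siRNA A (log2 fold change 1.29, adjusted p = 1.86e-05) and siRNA B (0.83, adjusted p = 0.00059). Both calls held in every alternative fit described below, with lowest log2 fold changes of 0.93 (siRNA A) and 0.63 (siRNA B). The paper, in contrast, reports by qRT-PCR that its siRNAs lowered SNHG5 in HCT116 cells 36 h after transfection. The cause of this difference was not tested. Other annotated genes overlap the exons of SNHG5, and whether their reads enter its count was not tested. Because SNHG5 ran against the labels, the groups are named by their labels throughout. No direction below is read as an effect of lower SNHG5. Of 10 markers of colon epithelium 8 had a row, with a summed level of 2096 to 2183 CPM in control, 2805 to 3441 CPM in siRNA A libraries and 2393 to 2453 CPM in siRNA B libraries, while KRT20 stayed at or below 0.820 CPM in every library. The keratins KRT8, KRT18 and KRT19 rose with siRNA A (log2 fold changes 1.06, 1.01 and 1.09). In the same list EPCAM (−0.55, adjusted p = 0.00121) and CDX2 (−0.52, adjusted p = 0.00413) fell with siRNA A. With siRNA B, 2 of the 7 markers tested rose, KRT8 (0.59, adjusted p = 0.00329) and VIL1 (0.50, adjusted p = 0.00305). Only CDX2 was called lower there (−0.43, adjusted p = 0.0182). The summed leukocyte markers (3 of 6 with a row) did not exceed 1.67 CPM and those of fibroblasts (4 of 6) reached 19.7 CPM, nearly all of it COL1A1, with LUM at 0 in every library. Fibroblast markers stood at 18.5 to 19.7 CPM in control, 9.44 to 12.4 CPM under siRNA A and 8.59 to 9.45 CPM under siRNA B, and the part of these cell type markers in the results below was not tested. Endothelial markers had no row and were not analysed here.

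All 10 genes were expressed in the control cells, and all 10 passed the filter on low values in each library. Per kilobase of the canonical transcript, the control mean ran from 23.1 ± 1.65 CPM (SD, n = 3) for JAK1 and 20.9 ± 2.48 for STAT3, through 13.6 ± 2.87 for OSMR and 12.3 ± 1.87 for TYK2, to 7.10 ± 0.609 for SOCS3 and 6.87 ± 1.40 for IL6ST. PIM1 followed at 4.41 ± 0.181, IL6R at 3.71 ± 0.836, LIFR at 1.72 ± 0.446 and JAK2 at 1.37 ± 0.292 CPM per kilobase. The ranges of the control libraries overlapped between JAK1 and STAT3, OSMR and TYK2, SOCS3 and IL6ST, and LIFR and JAK2. Within each control library JAK1 lay above STAT3, OSMR above TYK2 and LIFR above JAK2, while SOCS3 and IL6ST changed order. With the summed length of all annotated exons in place of the canonical transcript, OSMR led at 10.5 CPM per kilobase, before STAT3 at 9.19 and JAK1 at 8.93, while the places from IL6ST downwards were kept. JAK1 and STAT3 were thus far more abundant than JAK2, and IL6ST exceeded IL6R, on either length.

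**Figure D1:**
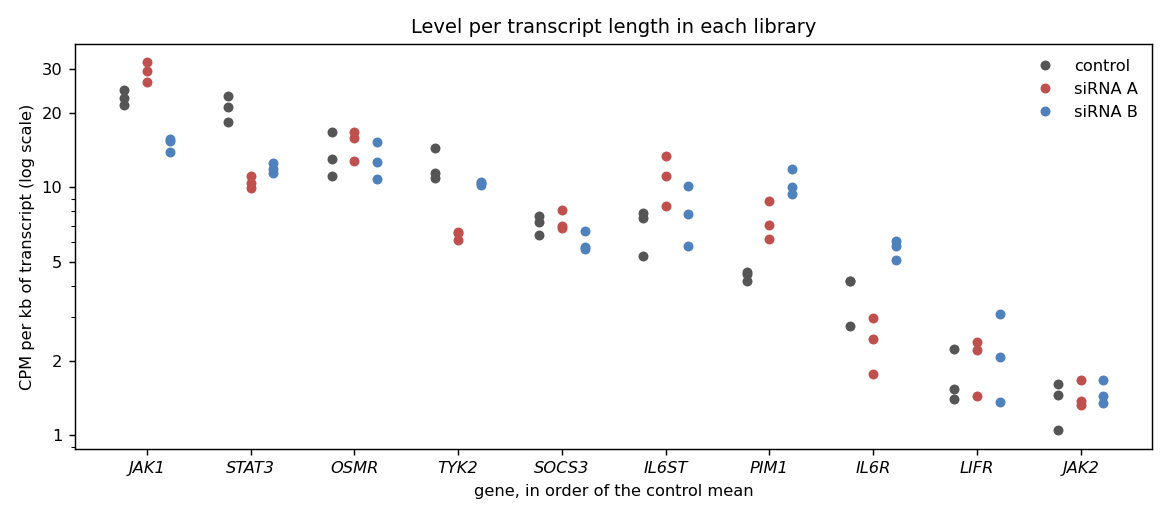
Level of each gene per kilobase of its canonical transcript (CPM per kb as deposited, log axis) in each of the 9 libraries, ordered by the control mean; each point is 1 library. JAK1 and STAT3 lead at 23.1 and 20.9 CPM per kb in control and JAK2 is last at 1.37, and the STAT3 points of both siRNA groups lie below those of control.

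With siRNA A, 8 of the 10 genes were called against control, beside 51.4% of all genes tested. Of these, 6 rose (JAK1, JAK2, IL6ST, OSMR, SOCS3 and PIM1), beside 23.9% of all genes called higher, and STAT3 and TYK2 fell, beside 27.6% called lower. With siRNA B, 4 of the 10 were called, beside 34% of all genes: IL6R and PIM1 rose (15.6% of all genes were called higher) and STAT3 and JAK1 fell (18.3% were called lower). STAT3 and PIM1 were the members called in the same direction with both siRNAs, against the same 3 control libraries, and JAK1 was called in opposite directions. The median log2 fold change of the 10 genes was 0.48 with siRNA A and 0.23 with siRNA B, beside −0.02 and 0.0043 over all genes. On unscaled totals, that is CPM as deposited with no TMM factor, these medians of the 10 genes were 0.13 and 0.03.

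The count of members that rose depended on the scaling between libraries. On unscaled totals the median of all genes moved to −0.34 (siRNA A) and −0.18 (siRNA B), and the share of calls that were higher fell from 46.4% to 16.1% with siRNA A and from 46.0% to 18.8% with siRNA B. On that scale 3 members rose with siRNA A (JAK1, IL6ST and PIM1) and 3 fell (STAT3, TYK2 and IL6R), while the calls with siRNA B were 2 higher and 2 lower as before. The rise count with siRNA A was also 3 without control replicate 3 and 3 without siRNA A replicate 2.

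**Figure D2:**
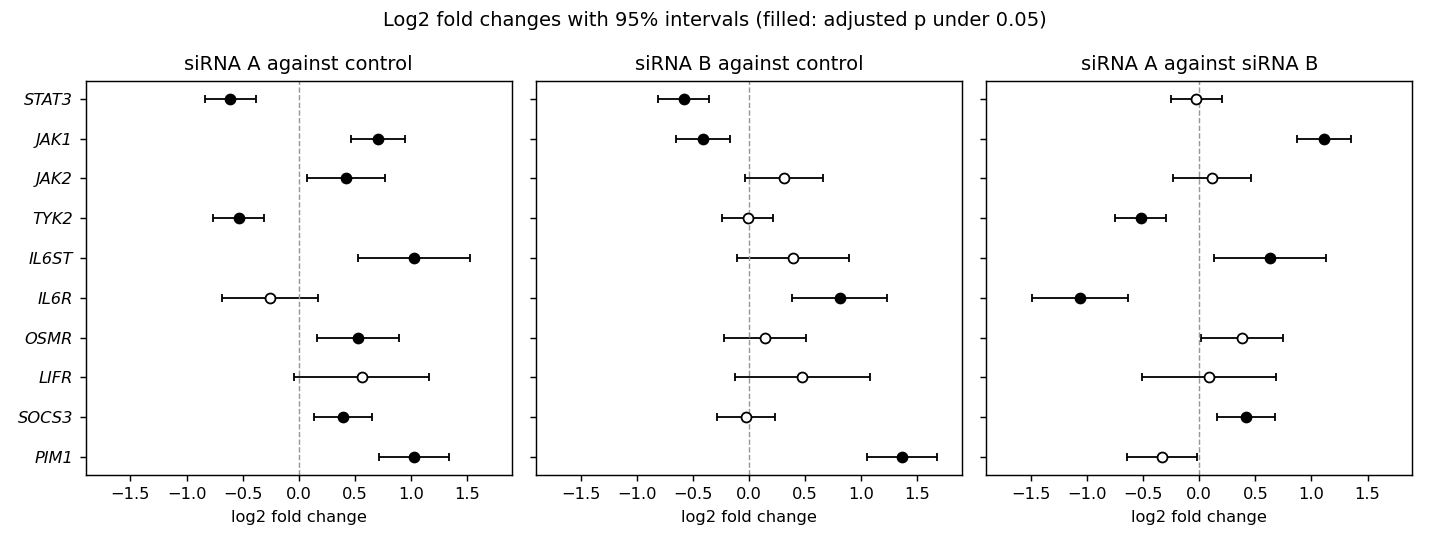
Log2 fold change of each gene (horizontal axis, log2 of TMM-scaled CPM plus 1) in the 3 comparisons; points are limma estimates over 3 libraries a group, bars are 95% intervals, and filled points have an adjusted p under 0.05. STAT3 lies at −0.61 and −0.58 in the comparisons with control and at −0.03 between the siRNAs, while JAK1 lies on opposite sides of 0.

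Among the receptors, IL6ST and OSMR rose with siRNA A, whereas LIFR and IL6R were not called in that comparison. IL6ST (chr5:55230923-55290850 on GRCh37, minus strand), the shared signalling chain, stood at 41.8, 59.5 and 61.3 scaled CPM in control, at 85.2, 142 and 110 with siRNA A and at 67.9, 96.1 and 53.6 with siRNA B. Every siRNA A library lay above every control library, whereas the siRNA B libraries overlapped both other groups. IL6ST rose with siRNA A by 1.03 ± 0.23 on the log2 scale (SE; adjusted p = 0.00289), which is a fold of 2.04, and this call held in all 15 alternatives, with a value of 0.66 on unscaled totals. With siRNA B the difference was 0.39 ± 0.23 (adjusted p = 0.206, 95% interval −0.10 to 0.89), or 0.18 on unscaled totals and 0.17 to 0.59 on leaving out 1 library. Between the siRNAs it was 0.63 (adjusted p = 0.0468), a call that did not hold in 9 of the 15 alternatives. These were unscaled totals, no filter, edgeR (adjusted p = 0.0501) and leaving out control replicate 2 or 3, siRNA A replicate 2 or 3, or siRNA B replicate 1 or 3, of which the highest adjusted p, 0.171, came without siRNA A replicate 2.

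IL6R (chr1:154377669-154441926, plus strand), the chain that binds interleukin-6 itself, moved otherwise. It stood at 21.3, 13.3 and 21.9 scaled CPM in control, at 19.1, 11.9 and 15.4 with siRNA A and at 32.2, 30.9 and 35.8 with siRNA B. All 3 siRNA B libraries lay above the other 6, and the siRNA A libraries overlapped control. IL6R rose with siRNA B by 0.81 ± 0.20 (adjusted p = 0.00804; fold 1.75) and was lower with siRNA A than with siRNA B by a log2 difference of −1.06 ± 0.20 (adjusted p = 0.00158), and both calls held in all 15 alternatives. Against control, siRNA A gave −0.26 ± 0.20 (adjusted p = 0.294, 95% interval −0.68 to 0.17), which became a call on unscaled totals (−0.60, adjusted p = 0.0172) and without control replicate 2 (−0.49, adjusted p = 0.0396).

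The reads of IL6ST for each read of IL6R, a ratio within a library that no scaling can alter, were 1.97, 4.47 and 2.80 in control, 4.45, 11.9 and 7.11 with siRNA A and 2.11, 3.11 and 1.50 with siRNA B. The siRNA A and siRNA B libraries did not overlap in this ratio, and siRNA A overlapped control only between its lowest library and the highest control library. Replicate 2 had the highest ratio in each of the 3 groups.

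OSMR (chr5:38845960-38945698, plus strand), the chain for oncostatin M, and LIFR (chr5:38474770-38608456, minus strand), the chain for leukaemia inhibitory factor, are neighbours, 237503 bases apart. OSMR stood at 53.8, 77.6 and 65.2 scaled CPM in control, at 79.3, 103 and 101 with siRNA A and at 67.5, 89.0 and 61.2 with siRNA B. Its siRNA A libraries lay above control, the lowest of them by little, while on the deposited CPM without TMM factors they overlapped control (70.9 to 92.7 against 61.2 to 92.5). OSMR rose with siRNA A by 0.53 ± 0.17 (adjusted p = 0.0202), and this call failed on unscaled totals (0.16, adjusted p = 0.427) and on leaving out control replicate 1 or 3 or siRNA A replicate 2 or 3 (adjusted p = 0.0571 to 0.0832). With siRNA B the difference was 0.14 ± 0.17 (adjusted p = 0.547, 95% interval −0.22 to 0.51), and it was −0.07 on unscaled totals. Between the siRNAs it was 0.38 ± 0.17 (adjusted p = 0.0907, 95% interval 0.02 to 0.75), a call only without siRNA B replicate 2 (0.54, adjusted p = 0.0221) and with the replicate block.

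LIFR had the largest SE of the receptors in the fit, although IL6R had the larger SD in control. LIFR stood at 13.0, 19.8 and 14.6 scaled CPM in control, 17.0, 29.6 and 25.6 with siRNA A and 21.1, 34.3 and 14.7 with siRNA B. The 3 groups overlapped. The difference from control was 0.56 ± 0.27 with siRNA A (adjusted p = 0.107, 95% interval −0.04 to 1.16) and 0.47 ± 0.27 with siRNA B (adjusted p = 0.205, 95% interval −0.12 to 1.07). Whether same-numbered libraries were paired is not known, and in a fit with a replicate block LIFR was called higher with siRNA A (adjusted p = 0.0135). Without siRNA A replicate 1 (0.78, adjusted p = 0.0416) or siRNA B replicate 2 (0.56, adjusted p = 0.0417) it was called with siRNA A too, and without siRNA B replicate 3 with siRNA B (0.75, adjusted p = 0.0453). Between the siRNAs LIFR differed by 0.09 ± 0.27 (adjusted p = 0.835, 95% interval −0.51 to 0.69), a difference that turned negative on unscaled totals (−0.06), without siRNA A replicate 2 (−0.07) and without siRNA B replicate 3 (−0.19).

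Replicate 2 stood apart in several receptor chains. On the scaled values OSMR and LIFR were highest in replicate 2 of each group, IL6ST was highest there in both siRNA groups but not in control, and IL6R was lowest there in each group. On the deposited CPM, OSMR with siRNA A was highest in replicate 3 (92.7 against 87.4). On that scale IL6ST was highest in replicate 2 of control as well (70.9 against 67.7 in replicate 3). Replicate 2 was also the shallowest library of each group, with 19313669 reads in control, 15566530 in siRNA A and 16340856 in siRNA B, and the part of depth in this pattern was not tested.

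The promoters were searched for the letters TTCNNNGAA, the core of the known binding site of STAT proteins, which reads the same on both strands. RefSeq windows on GRCh38.p14, each of 300 bases from 250 before to 50 after a start, were matched by symbol for all 10 members, 18 windows in all. LIFR alone among the members held the motif, in 2 of its windows, beside 7.66% of all 35116 windows in the table. The 2 matches are shown with 30 bases on each side and the match in capitals, since LIFR is the member whose promoters hold these letters. The upper one lies at chr5:38595532-38595600 with its match beginning 165 bases before its start, and the lower one at chr5:38557611-38557679 with its match beginning 182 bases before its own, both on the minus strand.
LIFR upper start: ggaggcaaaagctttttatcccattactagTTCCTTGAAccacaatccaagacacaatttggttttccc
LIFR lower start: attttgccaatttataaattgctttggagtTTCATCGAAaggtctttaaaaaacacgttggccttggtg
A match describes letters only and is not evidence of binding.

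The JAK kinases differed from each other in direction. JAK1 (chr1:65298906-65533437, minus strand), the kinase that the IL6ST chain chiefly relies on, stood at 96.3, 106 and 106 scaled CPM in control, at 151, 191 and 165 with siRNA A and at 75.4, 84.3 and 72.5 with siRNA B. The 3 groups did not overlap, with siRNA A above control and siRNA B below it. JAK1 rose with siRNA A by 0.71 ± 0.11 (adjusted p = 0.00029; fold 1.63) and fell with siRNA B to a log2 fold change of −0.41 ± 0.11 (adjusted p = 0.0139; fold 0.754). The call with siRNA B did not hold without siRNA B replicate 3 (−0.36, adjusted p = 0.0518), and that with siRNA A held in all 15 alternatives. On unscaled totals the siRNA A value was 0.34 (adjusted p = 0.0187), while siRNA B gave −0.62 (adjusted p = 0.000872). Between the siRNAs JAK1 differed by 1.11 ± 0.11 (adjusted p = 4.01e-05; fold 2.16), a call that held in all 15 alternatives.

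TYK2 (chr19:10461209-10491284, minus strand), the kinase also used by interferon receptors, stood at 40.8, 51.2 and 44.1 scaled CPM in control, at 31.3, 30.8 and 30.4 with siRNA A and at 43.2, 45.9 and 45.1 with siRNA B. All 3 siRNA A libraries lay below the other 6, and the siRNA B libraries lay within the control range on this scale. On the deposited CPM the siRNA B libraries, at 43.5 to 44.7, lay below control at 46.3 to 61.1. TYK2 fell with siRNA A to a log2 fold change of −0.54 ± 0.10 (adjusted p = 0.00119; fold 0.689) and was lower with siRNA A than with siRNA B by −0.52 ± 0.10 (adjusted p = 0.00246), in all 15 alternatives in each case. With siRNA B its difference from control was −0.01 ± 0.10 (adjusted p = 0.935, 95% interval −0.24 to 0.21), and on unscaled totals it was −0.22 (adjusted p = 0.174), against −0.90 with siRNA A.

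JAK2 (chr9:4984390-5129948, plus strand), which serves many cytokine and growth factor receptors, was the lowest member per kilobase and rested on 150 to 239 reads in a library. It stood at 6.46, 9.51 and 9.22 scaled CPM in control, at 10.4, 11.3 and 12.8 with siRNA A and at 9.80, 12.4 and 9.64 with siRNA B. On this scale both siRNA groups lay above control, by little for the lowest siRNA B library, and on the deposited CPM all groups overlapped. JAK2 rose with siRNA A by 0.42 ± 0.16 (adjusted p = 0.0422), but this call did not hold on unscaled totals (0.09, adjusted p = 0.664), with no filter on low values (adjusted p = 0.0557) and on leaving out control replicate 1 or 3, siRNA A replicate 2 or 3, or siRNA B replicate 1 (adjusted p = 0.0536 to 0.178). With siRNA B the difference was 0.31 ± 0.16 (adjusted p = 0.150, 95% interval −0.03 to 0.66), and between the siRNAs it was 0.11 ± 0.16 (adjusted p = 0.618, 95% interval −0.24 to 0.46), or −0.03 on unscaled totals.

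STAT3 (chr17:40465342-40540558, minus strand), the transcription factor on which the pathway converges, was lower with both siRNAs. It stood at 79.6, 96.4 and 93.7 scaled CPM in control, at 57.2, 57.8 and 60.0 with siRNA A and at 54.3, 61.7 and 62.9 with siRNA B. All 6 siRNA libraries lay below all 3 control libraries, and the siRNA A range lay within that of siRNA B on this scale. On the deposited CPM the siRNA A libraries, at 49.1 to 54.8, lay below those of siRNA B at 56.2 to 61.6. STAT3 fell with siRNA A to a log2 fold change of −0.61 ± 0.10 (adjusted p = 0.000537; fold 0.655) and with siRNA B to −0.58 ± 0.10 (adjusted p = 0.00139; fold 0.668). Between the siRNAs the difference was −0.03 ± 0.10 (adjusted p = 0.856), with a 95% interval of −0.26 to 0.20, and on unscaled totals it was −0.18 (adjusted p = 0.232). Over the 15 alternatives the log2 fold change ran from −0.98 to −0.57 with siRNA A and from −0.79 to −0.52 with siRNA B, and both calls held in each. No annotated gene overlaps STAT3.

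The STAT3 and JAK1 reads of a library can be set against each other without any scaling. There were 0.827, 0.910 and 0.881 STAT3 reads for each JAK1 read in control, 0.378, 0.302 and 0.364 with siRNA A and 0.720, 0.732 and 0.868 with siRNA B. The ratio with siRNA A lay below that of all 6 other libraries, and the highest siRNA B library overlapped control.

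The genes closest to STAT3 in pattern over the 9 libraries, among 8974 other genes with a mean of at least 10 CPM, were ZC3H7B (Pearson r = 0.987), NEBL (0.986), SPATA13 (0.985), TTF2 (0.981) and TIMELESS (0.980). The 9 points share 3 groups, so that any gene lower to a like degree with both siRNAs scores high. These genes had log2 fold changes of −0.44 (TIMELESS) to −1.12 (NEBL) with siRNA A and −0.39 (TIMELESS) to −1.09 (ZC3H7B) with siRNA B. Among the other members TYK2 was most like STAT3 (r = 0.57) and PIM1 least (r = −0.91).

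The 250 bases before the start of STAT3 and of PIM1 are printed because these members were called in the same direction with both siRNAs, STAT3 lower and PIM1 higher. The STAT3 stretch lies at chr17:42388443-42388692 on the minus strand of GRCh38.p14 and the PIM1 stretch at chr6:37169902-37170151 on the plus strand. Neither holds TTCNNNGAA, so both are in lower case throughout. The STAT3 stretch is 64.4% G and C and the PIM1 stretch 79.6%, beside a median of 58.7% over whole windows of all genes.
STAT3: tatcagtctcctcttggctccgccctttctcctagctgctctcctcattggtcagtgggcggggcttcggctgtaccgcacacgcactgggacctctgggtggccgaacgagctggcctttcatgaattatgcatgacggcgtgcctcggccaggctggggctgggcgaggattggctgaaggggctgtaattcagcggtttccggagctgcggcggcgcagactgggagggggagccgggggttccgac
PIM1: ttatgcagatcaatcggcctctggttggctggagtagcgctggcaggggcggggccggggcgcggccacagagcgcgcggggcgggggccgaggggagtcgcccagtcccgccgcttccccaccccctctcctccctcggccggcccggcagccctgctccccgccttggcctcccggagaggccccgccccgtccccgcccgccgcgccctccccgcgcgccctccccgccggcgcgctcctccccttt

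SOCS3 (chr17:76352859-76356158, minus strand), the feedback inhibitor that binds IL6ST and the JAKs, showed the smallest of the differences called with siRNA A. It stood at 17.4, 17.5 and 15.9 scaled CPM in control, at 21.4, 26.2 and 20.4 with siRNA A and at 17.6, 16.5 and 15.8 with siRNA B. The siRNA A libraries lay above all others on this scale, and on the deposited CPM they overlapped control (18.7 to 22.2 against 17.6 to 20.9). SOCS3 rose with siRNA A by 0.39 ± 0.12 (adjusted p = 0.0158; fold 1.31), a call that did not hold on unscaled totals (0.04, adjusted p = 0.807), without control replicate 3 (adjusted p = 0.0655) and without siRNA A replicate 2 (adjusted p = 0.0613). With siRNA B the difference was −0.03 ± 0.12 (adjusted p = 0.888, 95% interval −0.28 to 0.23). Between the siRNAs it was 0.42 ± 0.12 (adjusted p = 0.0164), which did not hold on unscaled totals (0.27, adjusted p = 0.119), without siRNA A replicate 2 (adjusted p = 0.0606) and without siRNA B replicate 3 (adjusted p = 0.0581).

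PIM1 (chr6:37137928-37143204, plus strand), a serine/threonine kinase that promotes survival and proliferation, rose with both siRNAs while STAT3 fell. It stood at 10.6, 10.3 and 10.3 scaled CPM in control, at 21.4, 28.1 and 18.3 with siRNA A and at 30.9, 26.7 and 27.6 with siRNA B. The 6 siRNA libraries lay well above control, and the siRNA groups overlapped. The rise was 1.03 ± 0.14 with siRNA A (adjusted p = 0.000147; fold 2.04) and 1.36 ± 0.14 with siRNA B (adjusted p = 4.96e-05; fold 2.57), and both calls held in all 15 alternatives, with 0.68 for siRNA A on unscaled totals. Between the siRNAs PIM1 differed by −0.34 ± 0.14 (adjusted p = 0.0849, 95% interval −0.65 to −0.02), which became a call on unscaled totals (−0.49, adjusted p = 0.0190) and without siRNA A replicate 2 (−0.50, adjusted p = 0.0118). Neither SOCS3 nor PIM1 overlaps another annotated gene.

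**Figure D3:**
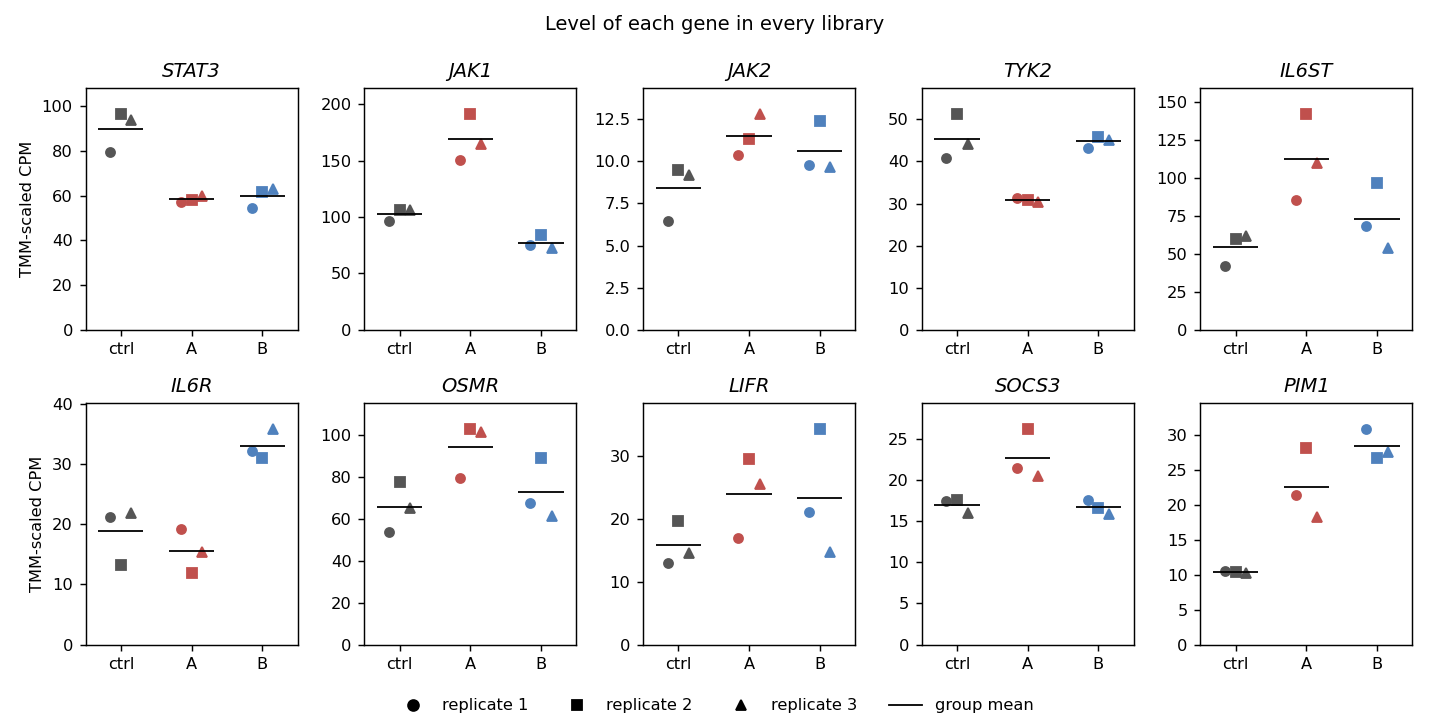
TMM-scaled CPM (vertical axes from 0) of each gene in the 9 libraries, with 3 control (ctrl), 3 siRNA A and 3 siRNA B libraries; symbols mark the replicate number and lines the group mean. The STAT3 libraries of both siRNA groups lie at 54.3 to 62.9, below control at 79.6 to 96.4, and the PIM1 libraries at 18.3 to 30.9, above control at 10.3 to 10.6.

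Set directly against each other, the siRNAs differed in 5 of the 10 genes, beside 37.1% of all genes. JAK1, IL6ST and SOCS3 were higher with siRNA A (17.6% of all genes were called higher), and TYK2 and IL6R were lower (19.5% were called lower). On unscaled totals JAK1 was called higher and TYK2, IL6R and PIM1 lower, and the share of all calls that were higher fell from 47.6% to 27.4%. Without siRNA A replicate 2 or siRNA B replicate 3, only JAK1 of the members was called higher. The members not called in the direct comparison were STAT3, JAK2, OSMR, LIFR and PIM1, with the intervals given above, of which the LIFR interval is the widest.

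Other genes of the pathway were read from lists of ligands, other receptor chains, other JAKs and STATs, negative regulators and genes known as STAT3 targets. The lists, like the members, were chosen with earlier results of these data known. Over all genes tested, 23.9% rose and 27.6% fell with siRNA A, 15.6% rose and 18.3% fell with siRNA B, and 17.6% were higher and 19.5% lower with siRNA A than with siRNA B. On unscaled totals these shares were 9.05% and 47.0%, 6.90% and 29.7%, and 10.2% and 27.0%, and the counts of every list below stand beside them. Of the other JAKs and STATs, 5 were tested and 3 fell with siRNA A, none rose, and none was called with siRNA B; 3 were lower with siRNA A than with siRNA B. The median was −0.48 with siRNA A and −0.22 with siRNA B. On unscaled totals 5 of 5 fell with siRNA A and 2 of 5 with siRNA B. STAT5B, which transmits growth hormone and cytokine signals, averaged 5.29 ± 0.634 scaled CPM (SD, n = 3) in control, 1.50 ± 0.276 with siRNA A (log2 fold change −1.33, adjusted p = 4.7e-05) and 4.10 ± 0.788 in siRNA B libraries (−0.31, adjusted p = 0.147). Its reads are uncertain, because STAT5A is a close copy and a neighbour of it. STAT2, which carries type I interferon signals, fell with siRNA A (−0.63, adjusted p = 0.000825, and −0.98 on unscaled totals), as did STAT6, which serves interleukin-4 (−0.48, adjusted p = 0.00177, and −0.84 on unscaled totals). With siRNA B, STAT6 stood at 0.14 (adjusted p = 0.291), or −0.07 on unscaled totals, and STAT2 at −0.25 (adjusted p = 0.117). The 2 that fell with siRNA B on unscaled totals were STAT2 (−0.45, adjusted p = 0.0176) and STAT5B (−0.49, adjusted p = 0.0335).

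Of the other receptor chains, 2 were tested: both fell with siRNA A and 1 of them with siRNA B. IL27RA, the interleukin-27 chain that partners IL6ST, fell with siRNA A (13.7 ± 0.794 against 29.7 ± 1.71 scaled CPM; −1.06, adjusted p = 2.51e-05) and gave −0.10 with siRNA B (adjusted p = 0.528). IL31RA, the chain for interleukin-31, averaged 1.53 ± 0.354 scaled CPM in siRNA A libraries, against 0.629 ± 0.181 for control and 0.826 ± 0.196 for siRNA B. No control library reached 1 CPM, so it passed the filter only through the libraries where it was high, and no test of it is given. IL11RA, the interleukin-11 chain, fell with siRNA A (−0.52, adjusted p = 0.0161) and siRNA B (−0.45, adjusted p = 0.0439) from 2.36 ± 0.190 scaled CPM. The siRNA A call of IL11RA did not hold without control replicate 1 (adjusted p = 0.0524) or siRNA A replicate 2 (adjusted p = 0.0628), and the siRNA B call in 10 of 15 alternatives, among them leaving out any control library, siRNA A replicate 1 or 3, or siRNA B replicate 1 or 2 (adjusted p = 0.0535 to 0.136).

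Of the ligands 3 were tested, and IL6, OSM and IL27 were not analysed here. LIF, the ligand of LIFR, was the only one of them called: it fell with siRNA B from 48.0 ± 8.35 to 31.0 ± 0.354 scaled CPM (−0.60, adjusted p = 0.00355) and gave 0.02 with siRNA A (adjusted p = 0.895), or −0.34 on unscaled totals. Without control replicate 1 or 3 or siRNA A replicate 2 the siRNA A value lay between −0.07 and −0.03. IL11 averaged 0.666 ± 0.306 scaled CPM in control and 1.30 ± 0.242 with siRNA B (0.47, adjusted p = 0.0634), a difference called in 3 of 15 alternatives. The ligands CTF1 and EBI3 were below the filter, so only their levels are given. CTF1 averaged 0.992 ± 0.316 scaled CPM in control and 0.307 ± 0.107 with siRNA A. EBI3 averaged 0.258 ± 0.137 in control and 0.714 ± 0.214 with siRNA A. CNTF reached 1 CPM only in control and is left out of the count.

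Of 14 negative regulators tested, 6 rose and 3 fell with siRNA A, and 3 rose and 5 fell with siRNA B. On unscaled totals these counts were 2 and 7 with siRNA A and 1 and 6 with siRNA B. PIAS4, a SUMO ligase that restrains STATs, averaged 44.5 ± 4.09 scaled CPM in control, 16.0 ± 2.76 with siRNA A (−1.43, adjusted p = 9.99e-06) and 23.5 ± 1.45 in siRNA B libraries (−0.89, adjusted p = 0.000407). Its relative PIAS2 fell to −0.61 (adjusted p = 0.000981) and −0.70 (adjusted p = 0.000744). SOCS2, which damps growth hormone signalling, rose with siRNA A (1.03, adjusted p = 4.31e-05) and gave 0.31 with siRNA B (adjusted p = 0.0625), a call without siRNA A replicate 2 (adjusted p = 0.0391), with DESeq2 (0.0479) and with the replicate block (0.0472). On unscaled totals the siRNA A value of SOCS2 was 0.68 and that of PIAS2 −0.96. PTPN2, a phosphatase that acts on JAK1 and STAT3, rose with siRNA A (0.75, adjusted p = 0.000736, and 0.39 on unscaled totals) and siRNA B (0.44, adjusted p = 0.0254), although the latter was lost on unscaled totals (0.23, adjusted p = 0.211), without control replicate 2 or 3 and without siRNA B replicate 1 or 3 (adjusted p = 0.0534 to 0.129).

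Of 19 tested genes known as STAT3 targets in other settings, 12 rose and 2 fell with siRNA A, and 5 rose and 4 fell with siRNA B; 14 were higher with siRNA A than with siRNA B and none was lower. On unscaled totals these counts were 6 and 4, 4 and 4, and 7 and 0. The median log2 fold change was 0.61 with siRNA A, 0.07 with siRNA B and 0.50 between them, and 0.24, −0.13 and 0.35 on unscaled totals. The list is of genes with many other regulators, and it was picked by name and not by binding in these cells. JUNB, an AP-1 transcription factor, went from 49.4 ± 3.30 scaled CPM to 175 ± 80.3 with siRNA A (1.71, adjusted p = 0.000142) and 95.2 ± 13.5 in siRNA B libraries (0.92, adjusted p = 0.0110). FOS, another AP-1 factor, rose with siRNA A (1.26, adjusted p = 0.000363) and siRNA B (0.67, adjusted p = 0.0240), the latter lost on unscaled totals (0.48, adjusted p = 0.0647), without control replicate 2 or 3 and without siRNA B replicate 1 or 2 (adjusted p = 0.0642 to 0.0970). CEBPB, a factor of the acute phase response, rose by 1.47 (adjusted p = 3.93e-05) and 0.94 (adjusted p = 0.00136). BIRC5, which encodes the apoptosis inhibitor survivin and is also a gene of dividing cells, fell from 168 ± 13.6 scaled CPM to 95.8 ± 11.2 (−0.81, adjusted p = 0.000814) and 68.3 ± 13.5 (−1.31, adjusted p = 7.52e-05).

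**Figure D4:**
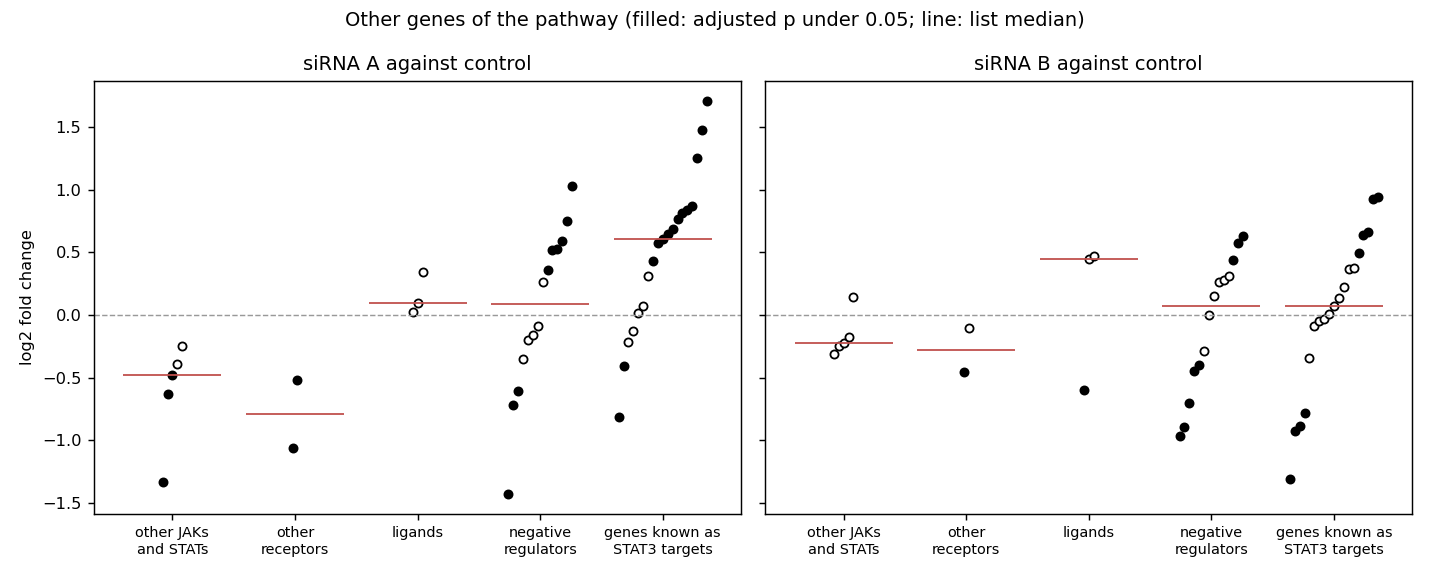
Log2 fold change against control (vertical axis) of the tested genes of the 5 lists with siRNA A (left) and siRNA B (right); each point is 1 gene, filled where the adjusted p was under 0.05, and lines are list medians. The medians of the other JAKs and STATs lie at −0.48 and −0.22 and those of the STAT3 targets at 0.61 and 0.07.

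Annotated neighbours limit some of these values. RAVER2 overlaps an exon of JAK1 and INSL6 an exon of JAK2, IL6R-AS1 overlaps IL6R, RICTOR overlaps OSMR and LIFR-AS1 overlaps LIFR, in each case on the other strand, and unnamed genes overlap IL6ST. On the same strand, LINC01359 and RP4-535B20.1 overlap exons of JAK1. Whether reads were counted by strand was not given in the sources used here, so reads of these genes cannot be told apart from their partners'. For LIF, IL11RA, STAT6, SOCS2, PIAS2, JUNB, CEBPB, NEBL and SPATA13, too, the span of another annotated gene, introns included, overlaps an annotated exon. As in any bulk sample, fewer cells that express a gene and less RNA per cell cannot be told apart.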

How the data were processed

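RNA of 9 HCT116 libraries was measured by the authors, who deposited 1 table of CPM values, the reads of a gene brought to a common library total, with 15354 genes and no scaling between libraries beyond the total. Per the submitters' processing notes, TopHat2, HTSeq and the build GRCh37 were used; strand was not given in the sources used here. Every value was a whole multiple of 1 read (100% within 0.01 read), so reads and totals (15566530 to 23277549) were recovered. A level of 3 reads is 0.129 to 0.193 CPM, which covers counting error only.

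Symbols came from GENCODE on GRCh37 (14871 matched). Then limma 3.58.1 in R 4.3.3 (trend on the mean) was fitted to log2(CPM / TMM factor + 1) of all 9 libraries, with 1 mean per group. The fit covered the 13893 genes that reached 1 CPM in 3 or more libraries. Adjustment over these genes was by Benjamini-Hochberg, with a threshold of 0.05. Intervals for a log2 difference are limma's 95% intervals, unadjusted. The code was tested on simulated data.

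The 15 alternatives were library totals without TMM factors (unscaled totals), a pseudocount of 0.1, no filter on low values, edgeR 4.0.16 (quasi-likelihood) and DESeq2 1.42.0 on recovered reads, the replicate block, and leaving out each of the 9 libraries. Same-numbered deviations from the group means correlated across genes by 0.646, 0.411 and 0.130 between control and siRNA A. Between control and siRNA B the values were 0.173, 0.445 and −0.386, and between the siRNAs 0.204, 0.442 and 0.019. Libraries with different numbers were not compared in this way, so these values cannot show whether the numbers mark pairs. The block is therefore given only as an alternative. Libraries of 1 group correlated with r from 0.983 to 0.994 and differed beyond sampling noise (chi-square per degree of freedom at least 12.6), so each counted as 1 replicate.

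The members and the gene lists were chosen with earlier results of these data known. All 10 members are named; of each list up to 4 genes are named, those called with at least 1 siRNA that had the largest absolute mean of the log2 fold changes with siRNA A and siRNA B; and the 5 genes most correlated with STAT3 are named. Figures were drawn with Python 3.11.15 and matplotlib 3.10.9. The sequences of the siRNAs were not used here. A list gene that reached 1 CPM in no library of 1 of the groups was given by its level alone, with no test. Some genes of the pathway are not reported here and enter none of the list counts.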

Additional observations from a re-analysis of the deposited data

Results flagged for a closer look

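The values here are log2 differences of siRNA A minus siRNA B. Each was picked out because the effects of the siRNAs against the same 3 control libraries differed by limma's test of siRNA A against siRNA B, and no explanation was tested. Only the members, SNHG5 and the list genes named above could be picked, so other list genes that differed are left out. By the same test MYC, for example, differed by 1.02 (adjusted p = 0.00647), PIAS3 by 0.76 (adjusted p = 0.000295) and PTPN1 by −0.27 (adjusted p = 0.0473). Among the members, JAK1 differed by 1.11 (adjusted p = 4.01e-05), with all 3 siRNA A libraries above all 3 siRNA B libraries. TYK2 differed by −0.52 (adjusted p = 0.00246) and IL6R by −1.06 (adjusted p = 0.00158), with all 3 siRNA A libraries below all 3 siRNA B libraries. IL6ST differed by 0.63 (adjusted p = 0.0468), with overlapping libraries, and SOCS3 by 0.42 (adjusted p = 0.0164), without overlap.

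The targeted gene SNHG5 differed by 0.46 (adjusted p = 0.0163), a call not held on unscaled totals (0.31, adjusted p = 0.0938) and without siRNA A replicate 1 or 3 or siRNA B replicate 1 (adjusted p = 0.0502 to 0.0618). Among ligands and receptors, LIF differed by 0.62 (adjusted p = 0.00275) and IL27RA by −0.96 (adjusted p = 9.92e-05). Among the STATs, STAT5B differed by −1.02 (adjusted p = 0.000488), STAT6 by −0.62 (adjusted p = 0.000618) and STAT2 by −0.38 (adjusted p = 0.0215). Among negative regulators, PIAS4 differed by −0.54 (adjusted p = 0.00781) and SOCS2 by 0.72 (adjusted p = 0.000806). Among genes known as STAT3 targets, JUNB differed by 0.79 (adjusted p = 0.0222; 0.44 without siRNA A replicate 2), FOS by 0.59 (adjusted p = 0.0384), CEBPB by 0.53 (adjusted p = 0.0263) and BIRC5 by 0.50 (adjusted p = 0.0208). Of these list genes, the calls of LIF, IL27RA, STAT5B, STAT6, PIAS4 and SOCS2 held in all 15 alternatives. The call of STAT2 did not hold without siRNA A replicate 1 or 2 or siRNA B replicate 3. The call of JUNB did not hold without siRNA B replicate 1 or 3, that of CEBPB without siRNA A replicate 1 or 2 or siRNA B replicate 2, that of BIRC5 without siRNA A replicate 1 or 3 or siRNA B replicate 2, and that of FOS without control replicate 3, siRNA A replicate 1 or 2, or siRNA B replicate 1 or 3 (adjusted p = 0.0528 to 0.147 over all of these). On unscaled totals the calls of CEBPB (adjusted p = 0.0942), BIRC5 (0.122) and FOS (0.0847) did not hold, nor did that of FOS with no filter (0.0518).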

How the results depend on the processing

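Of 450 values, the 30 log2 fold changes of the members under 15 alternatives, 401 kept their direction and their side of the threshold, 28 lost a call, 11 gained one and 10 changed sign; 13 of the 30 kept direction and side in every alternative. On unscaled totals, members called higher numbered 3 with siRNA A and 1 between the siRNAs, since that scale lowers values with siRNA A. Leaving out 1 library moved the members called higher with siRNA A between 3 and 7, those called lower with siRNA B between 1 and 2 and those called higher between the siRNAs between 1 and 4. On unscaled totals the sign changed for the members OSMR with siRNA B (−0.067), and JAK2 (−0.032) and LIFR (−0.064) between the siRNAs. Among the other named genes it changed for STAT6 with siRNA B (−0.066) and PIAS2 between the siRNAs (−0.053). It changed for LIF with siRNA A too, from 0.02 to −0.34 (adjusted p = 0.0509). Leaving out 1 library gave ranges across 0 for TYK2 (−0.093 to 0.057), OSMR (−0.011 to 0.26) and SOCS3 (−0.084 to 0.010) with siRNA B, for STAT3 (−0.089 to 0.010), LIFR (−0.19 to 0.39) and IL11RA (−0.18 to 0.054) between the siRNAs, and for LIF with siRNA A (−0.068 to 0.15). With the replicate block the genes called numbered 8093 with siRNA A, 5791 with siRNA B and 6229 between the siRNAs, and the members called higher 7, 3 and 4. LIFR with siRNA B (0.47, adjusted p = 0.0408) and OSMR between the siRNAs (0.38, adjusted p = 0.0141) became calls there. The block changed no other member's call beside that of LIFR with siRNA A. Of the other named genes, SOCS2 with siRNA B and PTPN2 between the siRNAs (0.31, adjusted p = 0.0388) became calls with the block. For the 15 other named genes 614 of 675 values kept direction and side. Among the members JAK2 had the fewest reads, at 150 to 239 in a library. Other named genes were lower: in the siRNA A libraries IL11RA stood at 0.835 to 1.42 CPM and STAT5B at 1.16 to 1.67 CPM.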
